A study of Mus musculus with 11 samples.

Results

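Transcripts of 10 transcription factor genes known from blood vessel endothelium, Klf2, Klf4, Sox4, Sox7, Sox11, Sox17, Sox18, Foxq1, Foxf2 and Erg, were followed in single-cell RNA-seq of mouse brain cortex. The genes were chosen by name, and all 10 were found among the 26921 genes counted in at least 1 of the 11 libraries. Single libraries held 20915 to 22173 genes. Tissue was depleted of myelin, dissociated with papain and Liberase and captured with 10x Genomics 3' chemistry, which counts 1 unique molecular identifier (UMI) per captured transcript. All groups were C57BL/6 mice, female unless stated otherwise per the study's methods. The juvenile group held 4 libraries from mice at postnatal day 10 (P10), and the adult group held 3 libraries from untreated mice of 7 to 11 weeks. The aged group held 2 libraries from mice of 18 months. The EAE group held 2 libraries taken at the peak of experimental autoimmune encephalomyelitis, an inflammatory disease raised in females of 7 to 11 weeks with a MOG peptide of myelin oligodendrocyte glycoprotein in Complete Freund's Adjuvant, followed by pertussis toxin. Each juvenile and adult library pooled 6 mice and each aged and EAE library pooled 3, so no value belongs to 1 animal.

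Klf2 and Klf4 are zinc-finger factors that endothelium switches on in flowing blood, through a kinase cascade that ends at Mapk7 and the Mef2 factors and that the cerebral cavernous malformation proteins hold back. They are known for keeping endothelium calm, with the nitric oxide synthase gene Nos3 and the thrombomodulin gene Thbd among their targets. Sox7, Sox17 and Sox18 form the SoxF subfamily, which acts in vessel formation and, with Notch, in arterial identity, while Sox4 and Sox11 belong to the SoxC subfamily known from progenitor cells. Foxq1 and Foxf2 are forkhead factors prominent in brain endothelium, and Foxf2 is also known from brain pericytes. Erg is an ETS factor that maintains endothelial identity.

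Of 54646 barcodes, 50625 passed the filters, at 15755504 to 34326349 UMIs per library, and any 2 libraries shared 13 to 125 barcodes. No cell annotation was used, and clusters were named from marker genes, with the 10 factors left out of clustering and naming. Endothelial-like cells (ECs) numbered 20702 and mural-like cells (pericytes and smooth muscle) 1495. Pecam1, Flt1, Kdr and Tek, endothelial genes also left out, summed to 2516 to 4454 UMIs per 1000000 in EC libraries and to 74.2 to 730.5 in mural ones. Libraries of a group were uneven in how alike they were. In ECs the chi-square per degree of freedom was 1.535 between adult replicates 2 and 3, which were summed and counted as 1 sample although they differed by more than counting noise, and 1.84 to 2.45 within the aged pair, the EAE pair and both juvenile pairs of like libraries. It was 11.8 to 13.7 between the first and the second pair of juvenile libraries and 29.7 to 31.4 between adult replicate 1 and the other adults. Nothing in the labels says whether like libraries came from separate tissue pools, so the p-values measure the spread between these libraries, which may be technical. Adult replicate 1 also carried 33.2 UMIs of 8 neuron genes per 1000000 in its ECs, against 2.08 to 10.2 in every other library. Markers of other cells were uneven in adult ECs too. Pericyte markers summed to 42.2 to 196.8 UMIs per 1000000, with a median of 42.6. Microglia markers without Sparc summed to 80.3 to 264.1, with a median of 82.2. When like libraries are summed, the aged and EAE groups hold 1 sample each. Members' calls lost in that setting or without adult replicate 1 are given both ways. Calls gained there are given in part.

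Levels are UMIs of a gene per 1000000 UMIs of the cell class (CPM), as mean ± SD over samples with n = 4 juvenile, 2 adult, 2 aged and 2 EAE. Tests are edgeR quasi-likelihood fits over all genes with Benjamini-Hochberg adjustment, and a gene was called at an adjusted p of at most 0.05. Each log2 difference follows TMM scaling, so it can depart slightly from the ratio of CPM means. In ECs, 6 of the 9 factors tested differed between juvenile and adult, against 42.6% of all 13629 genes, with 3 lower where 22% of all genes were lower and 3 higher where 20.6% were higher. Between aged and adult 1 was higher and 1 lower, against 4.94% of all genes called, with 2.15% higher and 2.79% lower. Between EAE and adult 1 was higher and 1 lower, against 27.1%, with 15.3% higher and 11.8% lower. Sox11 was too rare to be tested. The median log2 difference of all genes was -0.05, -0.01 and 0 in the 3 comparisons. Counts of listed genes given below for these comparisons stand against the same shares of all genes.

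**Figure D1:**
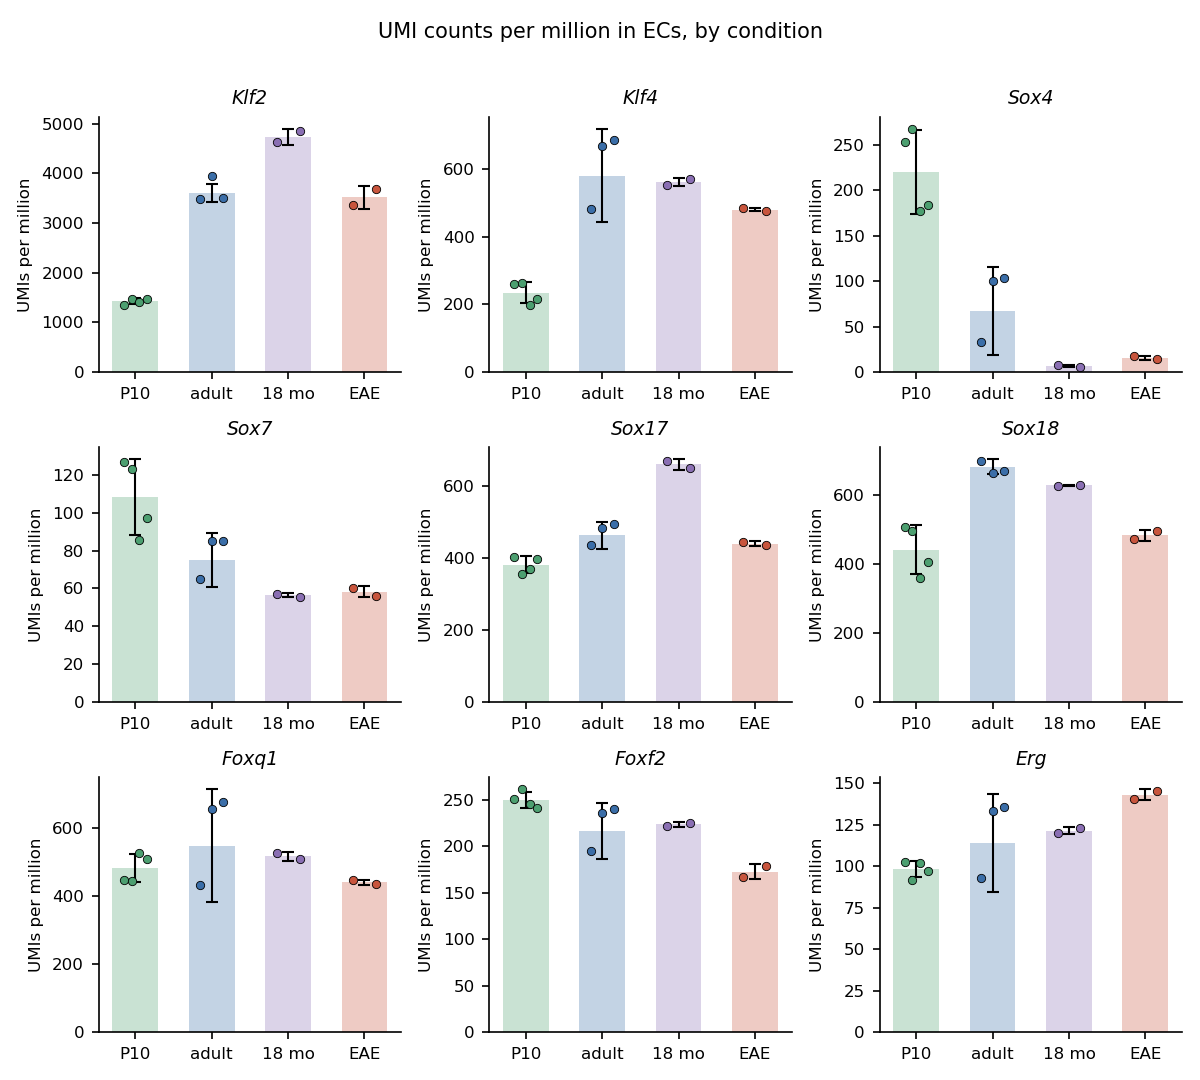
Level of 9 factors in ECs, in CPM on linear axes that start at 0, for P10, adult, 18 months and EAE. Points are libraries, and bars with whiskers are the mean and SD over samples, adult replicates 2 and 3 counting as 1. Klf2 lies between 1352 and 1474 at P10 and at 3359 or more in all other libraries, and Sox4 runs from 267.6 down to 5.79.

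Klf2 was the most abundant of the 10 in every EC library, and both Klf2 and Klf4 were markedly lower at P10 than in adults. Klf2 stood at 1352, 1461, 1417 and 1474 CPM in the juvenile libraries, at 3474, 3951 and 3505 in the adult, at 4625 and 4846 in the aged and at 3359 and 3683 in the EAE libraries. All juvenile values lay below all others and both aged values above all others, while EAE overlapped adult. From 3601 ± 179.5 in adults to 1426 ± 55.1 at P10 the fitted difference was -1.27 ± 0.10 (log2, SE), 2.41-fold lower (edgeR adjusted p = 1.84e-06). The aged level, 4735 ± 156.2, was 0.39 ± 0.12 above adult and was not called (edgeR adjusted p = 0.0866), although DESeq2 called it (adjusted p = 0.00714). In EAE the difference was 0.15, with an interval of -0.10 to 0.39. In ECs without a UMI of the neuron, mural and microglia lists, the EAE difference was -0.62 for Klf2 and -0.96 for Klf4. That setting left 16 and 27 cells of adult replicates 2 and 3 as the only adult sample, whose spread was taken from the other groups, so these values have no replicate check in adults. It kept 1359 of the 20702 ECs, and its lists hold genes that ECs express themselves. The microglia list summed to 5411 to 6238 CPM in juvenile ECs but to 55.99 to 128.2 without Sparc. The neuron list holds Stmn2, which is also a marker of the arterial class. The setting thus selects among ECs, and its values do not measure contamination alone.

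Klf4 measured 259.9, 263.4, 199.1 and 216 CPM at P10, 482.9, 668.8 and 686.1 in adults, 553.3 and 570.8 in aged mice and 483.8 and 476.2 in EAE. The juvenile libraries were again lowest without overlap, and the aged libraries fell inside the adult range. The juvenile difference was -1.25 ± 0.13 (edgeR adjusted p = 1.85e-05), close in size to that of Klf2, while the aged and EAE differences were -0.05 (interval -0.37 to 0.27) and -0.10 (interval -0.42 to 0.22).

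Several other Klf genes and listed targets were also lower at P10. Of 11 other Klf genes tested, 5 were lower and 0 higher, with a median of -0.70, where 22% of all genes were lower and 20.6% higher. Among them Klf9 stood at 73.4 ± 9.92 CPM at P10 and 248.2 ± 6.77 in adults (log2 difference -1.69), and Klf6, Klf7 and Klf11 differed by -0.78, -0.90 and -0.78. Of 11 genes listed as targets of Klf2 and Klf4, 6 were lower and 1 higher, with a median of -0.87. Thbd, which encodes the anticoagulant receptor thrombomodulin, stood at 59 ± 2.71 CPM against 273.5 ± 26.1 in adults, and the metalloproteinase inhibitor gene Timp3 at 27.8 ± 7.77 against 191.8 ± 30.7. Of 13 genes upstream of Klf2 and Klf4 only the mechanosensitive channel gene Piezo1, at -1.03, and the kinase gene Map2k5, at 0.51, were called. In the same comparison 17 of 28 immediate early and dissociation genes were lower and 0 higher, with a median of -0.94, and 16 of 16 cell cycle genes were higher, with a median of 4.48. The summed level of the dissociation genes was 8933 to 11860 CPM in juvenile ECs, 16030 in adult replicate 1, 27810 and 28410 in the other adults, 21650 to 21970 in aged and 25190 to 25930 in EAE. Klf2 and Klf4 can themselves be induced while tissue is dissociated, and the part of this list in their difference was not tested.

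In EAE, where neither Klf2 nor Klf4 was called, 6 of the 11 other Klf genes were higher and 2 lower. Klf9 reached 434.1 ± 4.33 CPM (log2 difference 0.98) and Klf6 1030 ± 20.6 (0.84), against -0.92 for Klf11 and -0.74 for Klf10. Of the Klf2 and Klf4 targets 5 were lower and 1 higher, with Thbd at 107.3 ± 5.24 CPM (-1.17) and Nos3 at 59.5 ± 5.12 against 107.5 ± 11.4 (-0.68). In aged ECs 0 of the 11 other Klf genes were called by edgeR at the adjusted threshold and 2 of the 11 targets were lower, Ptgds among them at -2.69.

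The promoters of Klf2, Klf4 and Sox4 are shown because the first 2 moved together at P10 and Sox4 moved the other way. They are RefSeq sequences of the mouse build GRCm38.p6, ending before the GENCODE gene start for Klf2 and Sox4 and before the RefSeq start for Klf4. Positions of matches count back from the RefSeq start, which for Klf2 and Sox4 lies downstream of the last base printed, and the search covered all 250 bases. Capitals mark a MEF2-type match in Klf2 and a FOX-type match in Klf4, and neither overlaps another match. The windows are chr8:72318812-72319032 (plus strand), chr4:55532476-55532725 (minus strand) and chr13:28953714-28953949 (minus strand), each upstream of a protein-coding gene.
Klf2: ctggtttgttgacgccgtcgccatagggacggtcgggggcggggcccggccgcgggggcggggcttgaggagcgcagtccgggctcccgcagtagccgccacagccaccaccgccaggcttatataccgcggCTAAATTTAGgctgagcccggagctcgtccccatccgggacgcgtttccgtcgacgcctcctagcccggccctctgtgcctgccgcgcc
Klf4: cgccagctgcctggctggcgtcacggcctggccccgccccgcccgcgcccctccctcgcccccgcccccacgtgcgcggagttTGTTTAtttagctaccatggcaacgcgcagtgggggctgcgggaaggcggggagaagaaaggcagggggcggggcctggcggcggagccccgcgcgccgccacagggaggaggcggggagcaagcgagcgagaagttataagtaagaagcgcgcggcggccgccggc
Sox4: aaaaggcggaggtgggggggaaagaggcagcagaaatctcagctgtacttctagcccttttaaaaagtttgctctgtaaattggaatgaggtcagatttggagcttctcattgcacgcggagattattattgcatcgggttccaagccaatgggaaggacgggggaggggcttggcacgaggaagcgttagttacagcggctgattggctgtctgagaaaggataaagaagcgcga
The MEF2-type motif (CTA, any 4 bases, TAG) was found once in Klf2, 118 to 109 bases before the RefSeq start, and in 3.2% of 32851 promoters of 250 bases searched on both strands. The FOX-type letters TGTTTA were found once in Klf4, 167 to 162 bases before the RefSeq start, and in 12% of promoters. The KLF-type letters GGGCGGG, found in 23.4% of promoters, had 2 matches in Klf2 and 4 in Klf4. The SOX-type ACAAT (27.7%) and the ETS-type CCGGAA (12%) had 0 matches in both, and the Sox4 window held 0 matches of any of the 5 motifs. These matches describe the letters only.

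**Figure D2:**
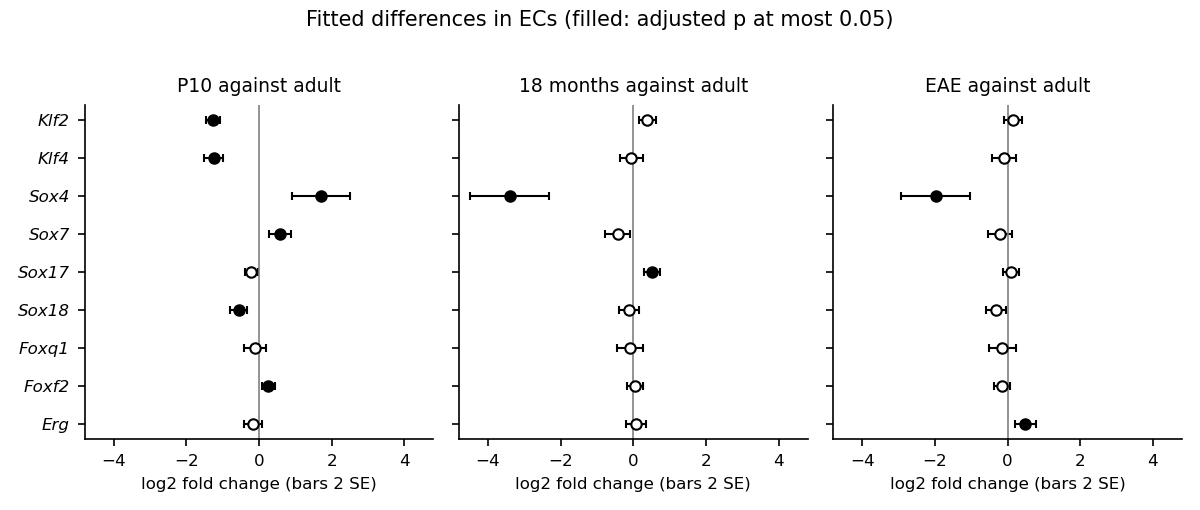
Fitted log2 difference from adult of 9 factors in ECs, for P10, 18 months and EAE, with bars of 2 SE on each side and filled points for adjusted p of at most 0.05. Sox4 lies at 1.70, -3.40 and -1.98, and Klf2 and Klf4 lie at -1.27 and -1.25 at P10.

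Sox4 had the largest differences of all the factors, in the order juvenile, adult, EAE, aged. It measured 252.8, 267.6, 177 and 183.5 CPM at P10, 32.9, 100.4 and 103.2 in adults, 7.60 and 5.79 in aged mice and 17.3 and 14.3 in EAE. No group overlapped another, but adult replicate 1 lay well below the other adults. The fitted differences from adult were 1.70 ± 0.40 at P10 (edgeR adjusted p = 0.0114), -3.40 ± 0.54 in aged (edgeR adjusted p = 0.017) and -1.98 ± 0.48 in EAE (edgeR adjusted p = 0.0193). All 3 calls were lost with like libraries summed, at adjusted p = 0.188, 0.708 and 0.363, although the differences stayed at 1.75, -3.33 and -1.91. The aged call was also lost without either aged library (adjusted p = 0.141 each time) and the EAE call without either EAE library (adjusted p = 0.101 and 0.13) and without a filter on low counts (-1.95, adjusted p = 0.0556). Neuron-like cells held 667.4 to 982.5 CPM of Sox4. ECs without a UMI of the 8 neuron genes, a setting not planned beforehand, gave 1.67, -3.48 and -2.02, each called. That setting kept 20295 of the 20702 ECs, and whether free neuron RNA adds to Sox4 in ECs was not tested.

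The share of ECs with a Sox4 UMI followed the same order. It was 46 to 70% in juvenile libraries, 11 to 22.8% in adult, 1.51 to 1.78% in aged and 3.29 to 3.93% in EAE. Juvenile ECs had median UMI counts of 4982 to 8191 per cell against 2240 to 3697 in the other groups, while microglia-like cells had 2521 to 3309 at P10 and 2207 to 3565 in adults. Thinned to 1500 UMIs per cell, which left out 40 juvenile, 293 adult, 768 aged and 887 EAE cells, the shares were 19.2 to 27.1%, 3.87 to 11.4%, 0.93 to 1.05% and 1.58 to 2.11%. Choroid-plexus-like epithelium had thinned Sox4 shares of 3.02 to 6.04% at P10, 0.127 to 0.901% in adults, 0 to 0.512% in aged mice and 0 to 0.206% in EAE, below the EC shares of the same stage. Microglia-like cells had thinned Sox4 shares of 12.8 to 20.1% at P10, 12.1 to 16% in adults, 3.94 to 6.88% in aged mice and 6.49 to 7.36% in EAE, above the EC shares in every adult, aged and EAE library. Whether Sox4 UMIs in choroid-plexus-like cells are background was not tested.

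Sox11, the other SoxC member, was nearly absent from ECs. The juvenile libraries held 1, 3, 4 and 5 UMIs, the adult libraries 1, 1 and 0, and the aged and EAE libraries 0. Pooled, the juvenile level of 0.568 CPM was 2.97 times the floor of 3 counts over the aged libraries and 4.05 times that of EAE. These ratios leave out the counting error of the 13 juvenile UMIs. Against the 2 adult UMIs the ratio was 5.25 (exact 95% interval 1.19 to 48), which like the floors covers counting error only. Sox11 was found instead in neuron-like cells, at 8.80 ± 8.46 CPM at P10 and 42.2 ± 20.7 in EAE, so its name as an endothelial factor is not borne out by its level here. The neuron-like levels rest on 25 UMIs in 404 cells of 8 samples, the lowest at 0 CPM. Oligodendrocyte-precursor-like cells held 5 Sox11 UMIs in 215 cells.

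The SoxF genes each kept their own course. Sox7, the scarcest, measured 126.9, 123, 85.8 and 96.9 CPM at P10, 65, 85 and 85.3 in adults, 57.2 and 55.7 in aged and 60.3 and 56.2 in EAE. Juvenile values lay above all adult values and the aged and EAE values below them. Only the juvenile difference was called, at 0.57 ± 0.15 (edgeR adjusted p = 0.0103), and it fell to 0.39 without adult replicate 1 (adjusted p = 0.0828) and to an adjusted p of 0.0833 with like libraries summed. In aged ECs it was -0.43, interval -0.78 to -0.09 (adjusted p = 0.163).

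Sox17 was highest in aged ECs. Its levels were 404.6, 355.9, 371.3 and 397.6 CPM at P10, 437.6, 483.1 and 495.4 in adults, 670.6 and 650.1 in aged and 445.1 and 435.9 in EAE. Both aged libraries lay above all others, and the EAE libraries were at the lower edge of the adults. The aged difference was 0.51 ± 0.11, 1.42-fold higher (edgeR adjusted p = 0.024), and the call was lost with like libraries summed (0.56, adjusted p = 0.747), without aged replicate 1 or 2 (adjusted p = 0.224 and 0.12) or without EAE replicate 1 or 2 (adjusted p = 0.0544 each time). In ECs without a UMI of the neuron, mural and microglia lists, the difference was 0.03. That setting leaves 1 adult sample and removes ECs with Stmn2, a marker of the arterial class, where Sox17 is high. The aged values lay above the adult ones on both sides of the circulation, at 797 and 849 against 543.4 to 610 CPM on the arterial side and at 582.8 and 625.5 against 365.7 to 459.3 on the venous side. Juvenile and EAE differences were -0.21 (interval -0.40 to -0.02, adjusted p = 0.0884) and 0.10 (interval -0.11 to 0.32), and the juvenile one was called without adult replicate 1 (-0.30, adjusted p = 0.0384).

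Sox18 was lower at P10, with 506.5, 496.1, 359.5 and 407.2 CPM against 697.5, 664.8 and 669.5 in adults. Aged ECs held 627.1 and 629.1 and EAE ECs 472.8 and 495.1, so that both conditions lay below every adult library. The juvenile difference was -0.56 ± 0.12 (edgeR adjusted p = 0.00255), lost with like libraries summed (adjusted p = 0.13). The EAE difference of -0.32 (interval -0.60 to -0.04) and the aged difference of -0.12 (interval -0.40 to 0.16) were not called. With all 11 libraries as separate samples the EAE difference of Sox18 was called (-0.33, adjusted p = 0.0486), as was the aged difference of Sox7 (-0.51, adjusted p = 0.0485).

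Other Sox genes were few in ECs. Of 6 tested, 3 were higher at P10 and 1 was lower in aged and in EAE. That gene was Sox9, known from astrocytes and progenitors, at 53.1 ± 4.5 CPM in juvenile, 29.5 ± 6.46 in adult, 13 ± 2.14 in aged and 2.34 ± 0.563 in EAE. Of 17 listed targets of SoxF factors and Erg, 3 were higher and 3 lower at P10, led by the apelin gene Apln (6.91) and its receptor gene Aplnr (4.44), which mark sprouting vessels. In aged ECs 0 were higher and 1 lower. In EAE 5 were higher and 2 lower, with Vwf, the von Willebrand factor gene, at 716.3 ± 10.5 against 167.8 ± 51.7 CPM (2.26) and Tek, the angiopoietin receptor gene, at 210.5 ± 4.64 against 412.9 ± 35.3 (-0.79). Of 21 other endothelial transcription factors 10 were higher and 6 lower at P10, 0 were called in aged and 7 were higher and 3 lower in EAE. At P10 Meox1 (1.59) and Ppard (1.07) were higher and Tbx3 (-1.36) and Lef1 (-0.99) lower.

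Of the forkhead genes only Foxf2 at P10 was called. Foxq1 measured 447, 445.4, 525.9 and 510 CPM at P10, 431.2, 653.8 and 674.7 in adults, 526.2 and 507.9 in aged and 445.6 and 433.9 in EAE. The adult libraries spanned more than the other 3 groups together, with adult replicate 1 lowest of all. No difference was called, at -0.12 (interval -0.43 to 0.19), -0.09 (interval -0.45 to 0.27) and -0.14 (interval -0.50 to 0.21) for juvenile, aged and EAE. Without adult replicate 1 the juvenile difference was -0.40 (adjusted p = 0.0252) and the EAE difference -0.42 (adjusted p = 0.0489), both then called.

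Foxf2 measured 250.6, 261.1, 245.4 and 240.9 CPM at P10, 195.4, 235.5 and 240 in adults, 221.8 and 225.1 in aged and 167.2 and 178.6 in EAE. Juvenile libraries lay just above the adult range and EAE libraries below it. The juvenile difference of 0.26 ± 0.09 was called (edgeR adjusted p = 0.0392) but was 0.13 without adult replicate 1 (adjusted p = 0.314), and it was not called with like libraries summed (adjusted p = 0.324), without a filter on low counts (adjusted p = 0.14), in cells named by marker score (0.20, adjusted p = 0.104), in arterial-side and venous-side ECs alone (0.22, adjusted p = 0.136) or without any 1 aged or EAE library (adjusted p 0.0615 to 0.0633). Of 17 other Fox genes, 2 were higher and 4 lower at P10, with Foxo3 at -0.59, 0 were called in aged, and Foxf1 (0.73) and Foxo3 (0.64) were the 2 called in EAE, both higher.

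Erg was the one member called higher in EAE. Its levels were 102.8, 91.9, 101.9 and 97.5 CPM at P10, 93.1, 133.7 and 135.8 in adults, 120.0 and 123 in aged and 140.9 and 145.4 in EAE. Both EAE values lay above all others, though close to adult replicates 2 and 3. The difference was 0.49 ± 0.14 (edgeR adjusted p = 0.0245). Without adult replicate 1 it was 0.26 (adjusted p = 0.0991), and it was not called with like libraries summed (adjusted p = 0.296), without either EAE library (adjusted p = 0.09 and 0.12) or in arterial-side and venous-side ECs alone (0.39, adjusted p = 0.0538). In ECs without a UMI of the neuron, mural and microglia lists, it was -0.46, in a setting with 1 adult sample that also removes ECs by genes of their own. At P10 the difference was -0.16, interval -0.41 to 0.09, and -0.39 without adult replicate 1 (adjusted p = 0.00744). Of 16 other ETS genes 1 was higher and 3 lower at P10, with Elf1 at -1.06, 0 were called in aged, and in EAE Elk4 was higher (0.49) and Ets1 lower (209.6 ± 7.10 against 559.7 ± 15.2 CPM, -1.24).

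The second question was whether the factors differ along the circulation. EC clusters were named from marker genes as Arterial-like, capillary toward arterioles (CapA-like), capillary toward venules (CapV-like), Venous-like, Tip-like and Mitotic-like, and 9079 of the 20702 ECs fell in no class. The arterial side joined Arterial and CapA, 5512 cells, and the venous side CapV and Venous, 5093 cells. In aged ECs and in adult replicate 1 no cluster was named CapV, so that their venous side is the Venous class alone. Averaged over the 4 conditions with the library as a block, 2 factors were higher and 1 lower on the arterial side, against 32.6% of all 11654 genes called, with 16.1% higher and 16.5% lower. At P10 4 factors were higher and 2 lower, against 30.5% of all genes called, 14.5% higher and 16% lower. In adults 2 were higher and 1 lower, against 15%, with 7.67% higher and 7.29% lower. In aged ECs 3 were higher and 0 lower in edgeR, against 13.4%, with 6.77% higher and 6.62% lower. In EAE 3 were higher and 1 lower, against 20.9%, with 10% higher and 10.9% lower. The side difference itself departed from that of adults for 3 factors at P10, all toward the arterial side, against 12.2% of all genes, 6.36% in that direction and 5.87% in the other. It did so for 1 factor in aged ECs, against 2.25%, 1.03% toward the arterial and 1.22% toward the venous side, and for 2 in EAE, against 3.81%, with 1.49% and 2.32%. Calls by side depended on how sides were set. Of 36 averaged differences and departures of the factors, sides set by a marker score per cell gained 9 calls and lost 0, with 4 sign changes. The Arterial and Venous classes alone gained 8 and lost 2, with 4 sign changes.

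**Figure D3:**
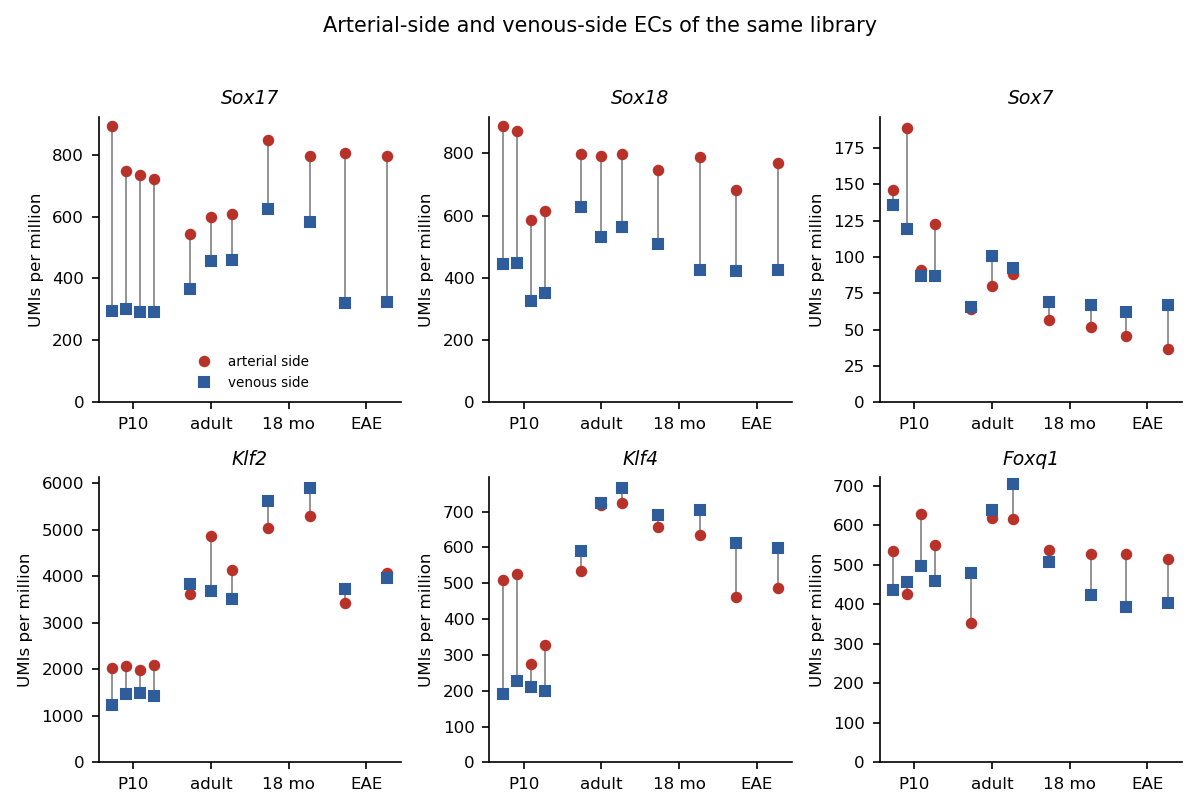
Level of 6 factors in arterial-side (circles) and venous-side (squares) ECs, in CPM, with a line joining the 2 values of each library, by condition. The circle lies above the square in every library for Sox17 and Sox18, while Klf2 and Klf4 have this order throughout only at P10.

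Sox17 and Sox18 were the arterial factors of the set. On the arterial side Sox17 measured 892.4, 746.9, 734.4 and 721.2 CPM at P10, 543.4, 597.1 and 610 in adults, 849 and 797 in aged and 806.2 and 795.7 in EAE. On the venous side it measured 295.4, 301.3, 292.1 and 292.6 at P10, 365.7, 455.1 and 459.3 in adults, 625.5 and 582.8 in aged and 322 and 323.5 in EAE. The arterial value was the higher in 10 of 10 samples. The mean log2 difference was 0.86 ± 0.04 (edgeR adjusted p = 1.87e-25). It was 1.26 at P10, 0.51 in adults, 0.41 in aged and 1.28 in EAE, each called.

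The size of the Sox17 difference itself changed with condition. It was 0.76 ± 0.10 larger at P10 than in adults (edgeR adjusted p = 6.55e-08) and 0.77 ± 0.11 larger in EAE (edgeR adjusted p = 2.95e-06), and in aged ECs it was -0.10 away, interval -0.33 to 0.13. In both conditions the venous mean was below and the arterial mean above that of adults. Over the classes at P10 Sox17 stepped down from 947.6 ± 94.9 CPM in Arterial to 671.1 ± 40.6 in CapA, 305.4 ± 9.71 in CapV and 264.7 ± 19.7 in Venous. In EAE the order was the same, from 861.9 ± 55.6 to 266.9 ± 9.66.

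Sox18 was higher on the arterial side in 10 of 10 samples as well, by 0.67 ± 0.04 (edgeR adjusted p = 1.91e-21). Arterial levels were 889.3, 872.8, 586.8 and 614.1 CPM at P10, 799.1, 792.3 and 798.6 in adults, 748.3 and 787.3 in aged and 683.3 and 767.9 in EAE. Venous levels were 445.9, 448.3, 324.5 and 352.3, then 629.1, 532.2 and 564.9, then 508.5 and 425.8, then 420.7 and 424.4. Within each condition no arterial library overlapped a venous one. The difference was 0.31 ± 0.10 larger at P10 than in adults (edgeR adjusted p = 0.0254), a call lost with like libraries summed (adjusted p = 0.167), in DESeq2 (adjusted p = 0.181), without a filter on low counts (adjusted p = 0.0875), between the Arterial and Venous classes alone (0.18, adjusted p = 0.599) and without adult replicate 1 (adjusted p = 0.101).

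Sox7, the third SoxF gene, did not follow. Averaged over conditions it was lower on the arterial side, by -0.25 ± 0.06 (edgeR adjusted p = 0.00151, DESeq2 adjusted p = 0.096). The difference was 0.22 at P10 (adjusted p = 0.0567) and -0.67 in EAE (adjusted p = 0.000177), where the arterial side held 45.8 and 36.9 CPM and the venous side 62.2 and 66.8. The change of the side difference from adult to P10, 0.39 (adjusted p = 0.0666), was called without juvenile replicate 1 or 3 or adult replicate 1 (0.44 to 0.49). That from adult to EAE, -0.50 (interval -0.86 to -0.14), was not called (adjusted p = 0.121).

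Klf2 and Klf4 were higher on the arterial side at P10, and neither had a called side difference within adult, aged or EAE ECs. At P10 Klf2 measured 2037, 2081, 1986 and 2093 CPM on the arterial side against 1226, 1481, 1484 and 1428 on the venous side, a difference of 0.43 (edgeR adjusted p = 2.65e-07), and Klf4 510.4, 526.5, 275.1 and 327.6 against 192.2, 228.6, 209.6 and 199.2, a difference of 0.81 (edgeR adjusted p = 0.00497). No juvenile library of one side overlapped the other for either gene. In adults Klf2 measured 3613, 4873 and 4134 CPM on the arterial side and 3837, 3693 and 3506 on the venous side, so that replicates 2 and 3 were higher on the arterial side and replicate 1, whose venous side lacks CapV, was lower. The adult differences were 0.15 (interval 0.02 to 0.29, adjusted p = 0.156) for Klf2 and -0.06 (interval -0.45 to 0.33) for Klf4. The juvenile side difference of Klf2 was 0.27 ± 0.08 larger than the adult one (edgeR adjusted p = 0.0327), but 0.13 without adult replicate 1 (adjusted p = 0.386), and it was not called by DESeq2 (adjusted p = 0.25), with RLE size factors (adjusted p = 0.0771) or with like libraries summed (adjusted p = 0.0774). It was also not called without juvenile replicate 4 (adjusted p = 0.152) or adult replicate 3 (adjusted p = 0.23). Without adult replicate 1 the averaged side difference of Klf2 was called at 0.12 (adjusted p = 0.000484), and its departures from adult were -0.51 in aged (adjusted p = 9.81e-05) and -0.41 in EAE (adjusted p = 0.00153), both called. For Klf4, with all libraries, the juvenile side difference was 0.88 ± 0.24 larger than the adult one and not called (edgeR adjusted p = 0.0696). In aged ECs Klf2 ran at 5035 and 5303 on the arterial side and 5609 and 5897 on the venous side (-0.19, interval -0.33 to -0.06, adjusted p = 0.0692). At P10 Tip-like cells had the lowest class means of Klf2, 823.2 ± 176.8 CPM, and Klf4, 104.4 ± 23.8, against 2273 ± 204.8 and 519.2 ± 156.7 in Arterial. In EAE the Tip-like means were again the lowest of the named classes, at 2330 ± 53.6 and 376.1 ± 43.9.

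The dissociation list moved with side as well as with condition. It was lower on the arterial side for 21 of 28 genes and higher for 2, with a median of -0.34, but at P10 9 were higher and 5 lower, and in EAE 0 were higher and 25 lower. Its part in the side values of Klf2 and Klf4 was not tested. The list counts that follow stand against 16.1% of all genes higher on the arterial side and 16.5% lower. Of 10 Klf2 and Klf4 targets 4 were higher on the arterial side and 2 lower, with Edn1 (1.11), Adamts1 (1.03) and Timp3 (1.01) higher and Nos2 (-1.75) lower. Of 13 upstream genes 4 were higher, led by Heg1 (0.59), which encodes a membrane protein of the cavernous malformation pathway, and 1 was lower, Piezo1 (-0.42). Other Klf genes were 2 higher and 3 lower of 9, other Fox genes 2 higher and 6 lower of 15, with Foxf1 at -1.38, other Sox genes 1 higher and 2 lower of 3, with Sox9 at -1.38, and other ETS genes 3 higher and 3 lower of 16, with Fli1 at -0.57. The targets of SoxF and Erg (9 higher and 5 lower of 17) and the other endothelial factors (6 higher and 9 lower of 21) hold genes that helped to form and name the classes, such as Hey1, Dll4, Efnb2 and Nr2f2, so these counts are no independent result.

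Sox4 leaned to the venous side at P10 and in adults and to the arterial side in aged ECs. At P10 it measured 222.8, 240.6, 179.1 and 182.2 CPM on the arterial side and 298.2, 294.8, 195.8 and 220.3 on the venous side, a difference of -0.40 (edgeR adjusted p = 8.65e-07). In adults the difference was -0.67 (edgeR adjusted p = 2.68e-06). In aged ECs the arterial side held 11.8 and 10.1 CPM and the venous side 0 and 2.55, that is 63 UMIs against 3 in all, for a pooled ratio of 8.29 (95% interval 2.71 to 41.3 for counting error). The aged side difference departed from the adult one by 3.63 ± 0.57 (edgeR adjusted p = 2.33e-05), a fitted value that depends on the near-empty venous side. The averaged side difference of 0.37 (adjusted p = 0.126) includes that near-empty side, and 8 of 10 samples were higher on the venous side. Without aged replicate 2 the aged venous side holds 0 UMIs and the fitted average has no fixed size. With sides set by a score per cell the aged departure was 2.87 (adjusted p = 0.0445). At P10 the class means of Sox4 ran from 155.6 ± 47.7 CPM in Arterial to 346 ± 70.5 in Venous. In EAE Tip-like cells held 70.4 and 47.8 CPM, above every other class, whose means were 8.28 to 16.6.

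**Figure D4:**
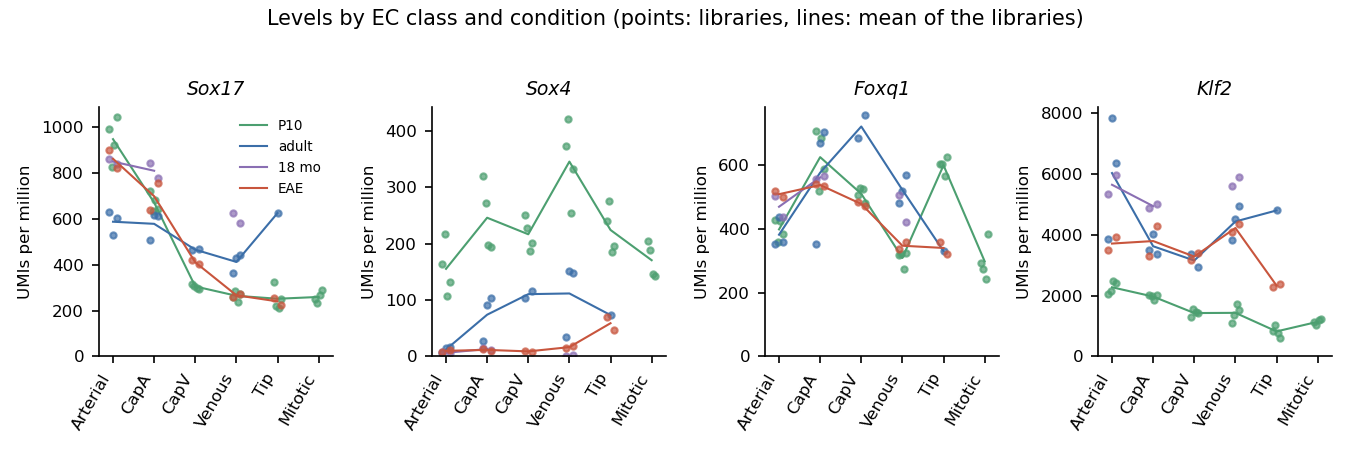
Level of Sox17, Sox4, Foxq1 and Klf2 in CPM over the EC classes, with points for libraries and lines for the mean of the libraries in each condition. A line breaks where a class was not named, as CapV in aged ECs. At P10 Sox17 runs from 947.6 in Arterial to 264.7 in Venous.

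The forkhead genes differed by side in single conditions. Foxf2 was lower on the arterial side at P10, at 205.9 to 210.6 against 227.1 to 257 CPM (-0.34, edgeR adjusted p = 1.77e-05), and not called in the other conditions or on average (-0.10, interval -0.18 to -0.02, adjusted p = 0.0599), although the averaged difference was called without juvenile replicate 4 or adult replicate 3 (-0.11 each time). Foxq1 was higher on the arterial side in EAE, at 528.3 and 514 against 393.9 and 404 CPM (0.35, edgeR adjusted p = 0.00272). The EAE difference departed from the adult difference by 0.59 ± 0.13 (edgeR adjusted p = 0.00264), a call lost in DESeq2 (adjusted p = 0.0871) and without EAE replicate 1 (adjusted p = 0.0833). At P10 the departure of Foxq1 was 0.32 (adjusted p = 0.0513), called without juvenile replicate 2 (0.43), adult replicate 2 (0.38) or either aged library (0.33). At P10 Foxq1 was high in CapA, 626.2 ± 87.7, and in Tip, 600.6 ± 25.3, and low in Venous, 309.8 ± 23, and Arterial, 399.2 ± 33.8. Erg had no called side difference in any condition, with 0.08 on average (interval -0.01 to 0.18, called without juvenile replicate 4 at 0.11), and its class means at P10 ran only from 84.1 to 113.5 CPM. In EAE the Tip-like cells held more Sox7 than any other class, 108 and 132.8 CPM, and less Sox18, 196.9 and 211.1.

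Mural-like cells, which lie against the endothelium in the vessel wall, served as the reference. All 9 tested factors were higher in ECs, against 48.3% of all 13469 genes called, 29.3% higher and 19% lower, and the median of all genes stood at 0.18. Within conditions 9 factors were higher at P10, against 44.1% called, 24.7% higher and 19.4% lower, and 9 in adults, against 30.4%, with 16.9% higher and 13.5% lower. In aged cells 8 were higher, against 24.1%, with 12.9% higher and 11.1% lower, and in EAE 8, against 27.1%, with 13.9% higher and 13.3% lower, Sox4 being the exception in both. Averaged over conditions, Sox18 differed by 3.96, Sox17 by 3.85, Erg by 3.83, Foxq1 by 3.36, Klf2 by 2.62, Klf4 by 2.06, Foxf2 by 1.01 and Sox4 by 0.63. The size changed with condition, and no test of that change was run. From P10 through adult and aged to EAE the difference was 5.76, 4.13, 3.08 and 2.88 for Sox18, 5.39, 4.11, 3.06 and 2.83 for Sox17, and 5.39, 3.97, 2.99 and 2.96 for Erg, alongside the rising EC marker levels in mural cells given next. For Klf4 it was 1.10, 3, 2.22 and 1.90. Sox7 had the highest fitted value, 5.99, which depends on the prior count and is therefore given as ratios. Sox7 had 0 UMIs in aged mural cells, where the EC level was 8.72 times the floor of 3 counts over the group. Pooled Sox7 ratios were 40.4 (95% interval 19.6 to 100.7) at P10, 8.91 (4.51 to 20.7) in adults and 17.8 (4.92 to 147.1) in EAE. The EC markers, which do not belong to mural cells, summed to 836 to 6559 CPM there and to 16110 to 31430 in ECs, with 836 to 1390 in juvenile, 2440 to 3320 in adult, 4240 to 4528 in aged and 4896 to 6559 in EAE mural libraries. The make-up of the mural cells also differed. Pericyte markers summed to 5573 to 13120 CPM at P10, 17960 to 26990 in adults, 25740 to 31410 in aged and 11130 to 13840 in EAE, and smooth muscle markers to 8121 to 15690, 2581 to 11670, 4490 to 7515 and 7067 to 9556. The part of these markers in differences between mural libraries was not tested.

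**Figure D5:**
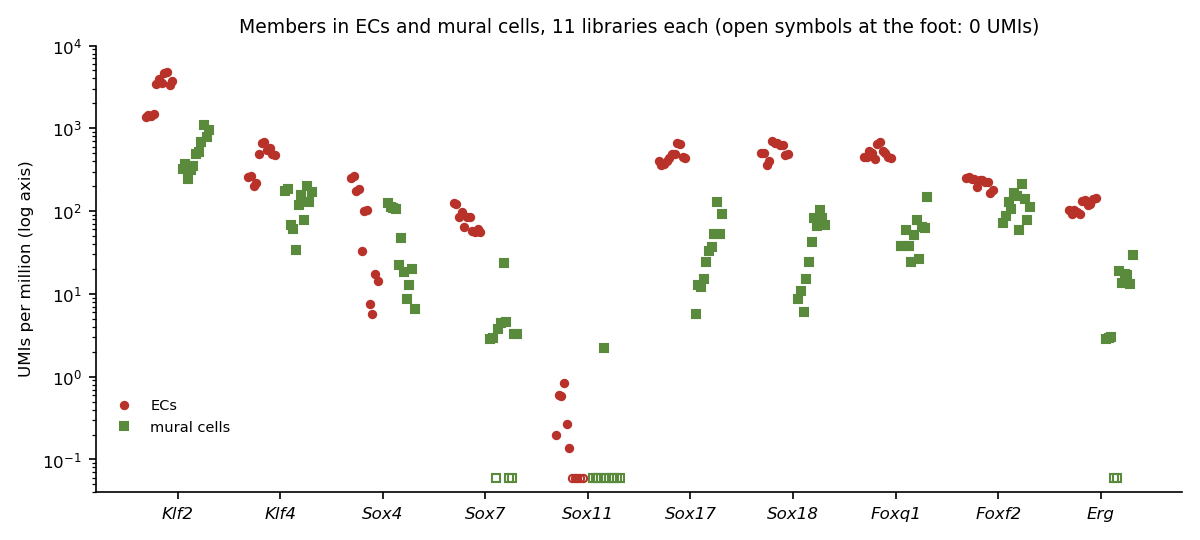
Level of the 10 factors in ECs (circles) and mural cells (squares), in CPM on a log axis, with 1 point per library and open symbols at the foot for libraries with 0 UMIs. Mural values of Foxf2 reach from 59.4 to 214.4, near the EC values, while those of Sox17 stay at 127.4 or below.

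Foxf2 was present in mural cells in every library, at 72.3, 86.1, 128.6 and 105.2 CPM at P10, 167.6, 150.4 and 59.4 in adults, 214.4 and 140.2 in aged and 79 and 110.8 in EAE. These values lay below the EC values of the same group in every group, although the highest aged mural library came close to the aged ECs. Klf2 in mural cells measured 321.5, 368.8, 245.3 and 311.9 at P10, 355.3, 484.1 and 516 in adults, 682.7 and 1100 in aged and 793 and 945.3 in EAE. The EAE difference of 1.07, which moved with the EC markers in mural cells (2440 to 3320 CPM in adult, 4896 to 6559 in EAE), was called (edgeR adjusted p = 0.0192), 1 member against 8.23% of all 6442 genes, 5.65% higher and 2.58% lower, but not without adult replicate 1 (adjusted p = 0.132) or without either EAE library (adjusted p = 0.0738 and 0.131). Sox4 was higher at P10 in mural cells too, 113 ± 9.06 against 27.4 ± 7.13 CPM in adults (1.99, edgeR adjusted p = 0.00022). Sox17 (-1.57, edgeR adjusted p = 0.0279) and Sox18 (-2.18, edgeR adjusted p = 0.00174) were lower, as were the EC markers in mural cells (836 to 1390 CPM at P10, 2440 to 3320 in adults) and 8 of 13 SoxF and Erg targets. The target list shares Cldn5, Cdh5, Esam and Egfl7 with the EC markers, so the lists are not separate results. In all 3 of 7 tested members were called, against 24.5% of all genes, 11.8% higher and 12.7% lower. Sox17 was lost in DESeq2 (adjusted p = 0.0679) and without juvenile replicate 1 or any adult library (adjusted p 0.0522 to 0.0872). Without adult replicate 3, Foxf2 at P10 (-0.83) and Sox18 (1.35) and Foxq1 (1.69) in EAE were called in mural cells. Between aged and adult 0 members were called by edgeR, and by DESeq2, against 0.0155% of all genes in edgeR, which is 1 lower gene, with 500 genes at an unadjusted p under 0.05. Sox4 was the factor whose EC lead did not hold in every condition, with pooled ratios of 1.84 (95% interval 1.64 to 2.07) at P10, 3.22 (2.15 to 5.03) in adults, 0.62 (0.258 to 1.95) in aged and 1.21 (0.606 to 2.82) in EAE. Its averaged call was lost in DESeq2 (adjusted p = 0.108) and without aged replicate 1 (adjusted p = 0.0601).

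Beyond the vessel wall Klf2 was also abundant in microglia-like cells, at 1153 to 2643 CPM, in perivascular-macrophage-like cells, at 609.4 to 2733, and in fibroblast-like cells, at 773.5 to 1989. UMIs of EC genes were also found outside ECs, and whether they came from free RNA, doublets or misnamed cells was not tested. Sox17 had a UMI in 1.32 to 12.3% of microglia-like cells and in 59.3 to 84.9% of ECs, and in 0.555 to 7.23% and 37.6 to 58.9% of them after thinning to 1500 UMIs. Microglia-like cells had median UMI counts of 2207 to 3565.

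Across the 10 EC samples, the genes whose levels ran most alike to each factor, among 3328 genes above 50 CPM and by Pearson r of log2(CPM + 1), were Plscr4 and Vezf1 for Klf2 (0.99 each), Tgoln1 (0.99) and Mast4 (0.98) for Klf4, Auts2 and Eid1 for Sox4 (0.98 each) and Marcks and Mbnl2 for Sox7 (0.96 each). For Sox17 they were Stmn2 (0.98), which is high in arterial ECs, and Med30 (0.97), for Sox18 Pcnp and Cbfa2t3 (0.97 each), for Foxq1 Sptlc2 (0.97) and Gadd45a (0.93), for Foxf2 Slc38a10 (0.98) and Rgl2 (0.97), and for Erg Ier3 (0.95) and Pnp (0.94). These r values describe 4 conditions more than 10 independent points and carry no test. Stmn2 stood at 332 ± 18.1 CPM in aged ECs against 81.4 ± 18.8 in adults, and Ier3 at 2478 ± 80.2 in EAE against 710 ± 560.8.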

How the data were processed

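Per the labels and the study's methods, the authors sequenced 10x 3' version 2 libraries, and the deposited values are raw UMI counts per gene and cell. The submitters' processing notes name bcl2fastq 2.19.1.403, STAR 2.5.3a, featureCounts 1.6.1, UMI-tools 0.5.3 and the mouse build mm10, while the study's methods give other versions of STAR, featureCounts and UMI-tools. The 10 members and all gene lists were chosen with earlier results of these data known.

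Cells with 500 to 6000 detected genes and at most 25% mitochondrial counts were kept. Leiden clusters (scanpy 1.11.5, leidenalg 0.10.2) were named from marker genes. The members, the lists of other Sox, Klf, Fox and ETS genes, the genes upstream and downstream of Klf2 and Klf4 and the dissociation genes were left out of clustering, except where a gene is a marker. EC clusters were formed within like libraries, and the limits that assign a class (log2 fold of 0.25 for capillary and 0.5 for the other classes, at least 3 markers) were set after the clusters were seen. Mixed clusters, 1297 cells, were set aside. Called doublets were kept in the main sums and left out in an alternative. The caller marked 0.0421 to 2.49% of the kept cells. The lowest rate was in aged replicate 2, where the alternative left out only 2 cells, and the reason for it was not tested.

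UMIs were summed per sample and class with at least 10 cells and tested in edgeR 4.0.16 (R 4.3.3) by robust quasi-likelihood fits with TMM scaling and filterByExpr, with all 4 conditions in 1 fit and the sample as a block where both classes or sides of a sample were compared. In edgeR each SE is the absolute log2 difference divided by the square root of the quasi-likelihood F. Intervals are 2 SE wide on each side and have no fixed coverage. DESeq2 1.42.0 was an alternative. Tested on simulated counts with 200 genes changed by 1 log2 unit, the fits recovered 76% of those that passed the filter for juvenile against adult ECs, 66.3% for aged, 55.5% for EAE, 94.2% for the sides, 63.7% for ECs against mural cells, 11.1% for the aged change of the side difference and 32.2% for aged mural cells. Of the genes called in these simulations, 12.5% were false for the aged change of the side difference, 7.83% for EAE ECs, 5.26% for aged ECs and 3.28 to 4.49% for the others. The simulated samples were independent, with a dispersion of 0.02 for every gene. The uneven likeness of the real libraries was not simulated, so these rates need not hold for the real fits. Exact intervals and floors cover counting error only. All 10 members are named. List genes named are those called with at least 20 CPM, at most 4 per list and comparison by size of change. Promoters are from RefSeq (GRCm38.p6), with entries for 6 of the 10 members.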

Additional observations from a re-analysis of the deposited data

Results flagged for a closer look

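In 35 groups of 4 libraries the highest or lowest library was tested for its distance from the others, and 3 stood apart. Chance gives about 1 in 20 for independent libraries and groups. The juvenile libraries form like pairs and the EC groups share cells, so that rate need not hold here. Foxq1 in mural cells was 59.83 CPM in juvenile replicate 3 and 37.6 to 38.2 in the other juveniles. Sox17 on the arterial side was 892.4 CPM in juvenile replicate 1 and 721.2 to 746.9 in the others. Foxf2 on the arterial side was 205.9 CPM in juvenile replicate 4 and 210.3 to 210.6 in the others, a gap of little size.

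Of 27 tests of whether the arterial-venous difference of a factor departs from that of adults, 6 were called by edgeR. Of all 11654 genes, 12.2% were called in this way at P10, 2.25% in aged ECs and 3.81% in EAE. At P10 the departures were 0.27 for Klf2, 0.76 for Sox17 and 0.31 for Sox18 (log2). In aged ECs it was 3.63 for Sox4, from 63 arterial and 3 venous UMIs. In EAE they were 0.77 for Sox17 and 0.59 for Foxq1. The calls of Klf2, Sox18 and Foxq1 were lost in DESeq2. Those of Klf2 and Sox18 were also lost without adult replicate 1, and that of Foxq1 without EAE replicate 1.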

How the results depend on the processing

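Of 1860 values of the members' 93 results under alternative settings, 1733 kept their side of the threshold without a reversal, 58 lost a call, 67 gained one and 2 reversed. The sign changed in 28, and apart from the 2 reversals these were values not called in either setting. Both reversals came in ECs without a UMI of the neuron, mural and microglia lists, where Klf2 in EAE was -0.62 and Erg in EAE -0.46, and where Klf4 in EAE was -0.96. The fit called Klf2 and Klf4 there, with the spread of the lone adult sample taken from the other groups. That setting left 8, 16 and 27 adult cells and 1 adult sample, gave no juvenile value, and put Sox17 in aged ECs at 0.03. It also removes ECs by genes of their own, such as Sparc and Stmn2. With it the count of genes called was 128 for aged and 357 for EAE ECs.

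Counts of genes called moved most in the small groups, and the cause was not tested. Summing like libraries gave 2477 genes for juvenile ECs (5806 in the main result), 1 for aged (673), 554 for EAE (3697) and 282 for the EAE change of the side difference (444). Aged ECs gave 1261 with all 11 libraries separate and 1201 without a filter on low counts. DESeq2 gave 2355 for the sides (3796), 584, 75 and 121 for the juvenile, aged and EAE changes of the side difference (1425, 262 and 444), and 956, 0 and 347 for juvenile, aged and EAE mural cells (1577, 1 and 530). Sides by a score per cell gave 57 for the aged change, and Arterial against Venous classes alone gave 778, 67 and 691 for the 3 changes.

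Leaving out 1 library gave 69 to 932 genes for aged ECs (69 and 96 without aged replicates 1 and 2), 1658 to 3665 for EAE ECs (1658 and 1688 without EAE replicates 1 and 2), 117 to 298 for the aged and 213 to 499 for the EAE change of the side difference, and 795 to 1599, 0 to 2 and 190 to 617 for juvenile, aged and EAE mural cells, with 795 and 284 without adult replicate 1 for juvenile and EAE. A group left with 1 library was assumed to vary like the others.

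Deviations of same-numbered samples from their group means had r of -0.19 to 0.35, with 1 of 13 pairs over 0.1. Within the aged and within the EAE group the deviations mirror each other, so these values cannot settle whether numbers mark pairs. No label says that they do, and the numbers were not taken as pairs. A replicate block was fitted with all 11 libraries as separate samples, so it differs from the main result in both choices. With it 5884, 1159 and 4157 genes were called for juvenile, aged and EAE ECs. Against the main result Sox17 at P10 (-0.24) and Sox18 in EAE (-0.41) were gained among the members and 0 lost. Separate libraries without the block gave 1261 genes for aged ECs and already called Sox18 in EAE.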
